A study of Schizosaccharomyces pombe with 4 samples.

Results

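The genes described here lie near the ends of chromosomes I and II of fission yeast, *Schizosaccharomyces pombe*, and were compared between wild-type cells and cells without dbr1. They are the 134 protein-coding transcripts, of 5153 in the table, that lay wholly within 100 kb of the smallest start or the largest end listed for chromosome I or II. By end, 37 were at the left and 33 at the right of chromosome I, and 34 were at the left and 30 at the right of chromosome II. A further 3 genes in these windows were left out by the same rule and are not analysed here. The windows and genes were chosen with the dbr1Δ/wild-type values of these libraries known, so those values are given as a description and carry no test.

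The wild type was ED668 and the mutant was a dbr1Δ strain, described on 1 of its 2 samples as a Bioneer strain. Both were h+ and carried ade6-M216, ura4-D18 and leu1-32, and 2 cultures of each grew separately in rich medium (YES) at 32 °C before total RNA was depleted of rRNA and sequenced with strand kept. Dbr1 is the enzyme that opens the branched lariat which splicing leaves behind, so that the excised intron can be degraded. The study used the mutant because excised introns persist in it, and compared its introns and transcripts with those of wild type.

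Total counts ran from 19780858 to 36062720 per library, and the end genes took 0.1918% and 0.1944% of the transcript counts of the wild-type cultures and 0.1607% and 0.1516% of those of the dbr1Δ cultures. The dbr1 gene itself was read 1535 and 1799 times in wild type and 207 and 164 times in dbr1Δ, a log2 fold change of -2.77 ± 0.12 (SE, n = 2 per strain). ura4, which ura4-D18 removes, had 0 counts in 3 libraries and 1 in the other.

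The chromosome ends of fission yeast are capped by telomeric repeats, inside which lie subtelomeres packed into heterochromatin that carries methylated histone H3. Farther in, the chromatin is still compact, and many of its genes are kept low during growth in rich medium and are used under starvation, during mating or in sporulation. Subtelomeres also exchange sequence with each other, so that the same block of genes may stand at several ends, while the ends of chromosome III hold the rDNA repeats.

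The outermost genes were copies of each other. Of 133 end genes found in the RefSeq annotation of the genome (ASM294v3), 56 encoded a protein at least 90% identical over at least 80% of its length to that of another gene, and for 53 of them such a copy stood at another of the 4 ends (10 had copies at all 4 ends, 16 at 3 and 27 at 2). This bears on every value that follows, because the authors removed reads that matched more than 1 locus with up to 3 mismatches. When the exons were divided into 49-base windows, the length of the reads, 65 of the 133 end genes had fewer than 50% of their windows unique in the genome at 3 mismatches, against 73 of 5003 other protein-coding genes (1.46%). No unique window was found in 43 end genes.

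The ftm genes, which encode predicted membrane proteins, show what the reads could not resolve, since 1 of this set of near-identical copies stands at each end. Their coding sequences of 441 bases differed among the 4 copies at only 2 positions, 194 and 437, counted from the first base of the start codon. The first stretch below covers bases 171 to 230, with bases that differ among copies in capitals, here and in the pairs that follow, and comes from RefSeq ASM294v3 at chrI:32400-32459 (ftm2, plus strand), chrI:5564422-5564481 (ftm3, minus strand), chrII:10739-10798 (ftm6, plus strand) and chrII:4502167-4502226 (ftm7, minus strand).
ftm2: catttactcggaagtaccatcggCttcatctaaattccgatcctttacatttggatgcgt
ftm3: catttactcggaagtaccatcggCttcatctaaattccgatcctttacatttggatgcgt
ftm6: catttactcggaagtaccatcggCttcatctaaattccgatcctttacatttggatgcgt
ftm7: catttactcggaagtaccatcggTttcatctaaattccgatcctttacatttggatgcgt
The second stretch, bases 412 to 441, lies at chrI:32641-32670, chrI:5564211-5564240, chrII:10980-11009 and chrII:4501956-4501985, in the same order and on the same strands.
ftm2: aatccaccatcaagattcatatcacGataa
ftm3: aatccaccatcaagattcatatcacGataa
ftm6: aatccaccatcaagattcatatcacAataa
ftm7: aatccaccatcaagattcatatcacGataa
All 4 genes had 0 counts in all 4 libraries. Between 0% and 6.53% of the windows of their transcripts were unique at 3 mismatches, so 0 counts here do not show that the genes were silent.

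Other copies differed enough to be read apart. The L-asparaginase genes SPAC977.12, at the left end of chromosome I, and SPBPB8B6.05c, at the left end of chromosome II, break down asparagine and had identical coding sequences over 926 bases. Their 13 differing positions lay in the last stretch, bases 921 to 1071, which is shown from chrI:57412-57562 (plus strand) and chrII:54497-54647 (minus strand).
SPAC977.12: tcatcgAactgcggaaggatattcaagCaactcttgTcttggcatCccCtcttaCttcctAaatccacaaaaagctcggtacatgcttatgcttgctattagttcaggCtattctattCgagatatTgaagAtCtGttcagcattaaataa
SPBPB8B6.05c: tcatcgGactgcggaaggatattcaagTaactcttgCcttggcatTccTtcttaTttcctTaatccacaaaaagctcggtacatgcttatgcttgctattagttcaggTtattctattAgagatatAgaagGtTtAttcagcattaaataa
SPAC977.12 nevertheless drew 886 and 1191 counts from wild type and 496 and 491 from dbr1Δ, and SPBPB8B6.05c had 282 and 385 against 162 and 96, so both copies had reads in both strains. The other pair, SPAC186.03 at the right end of chromosome I and SPBPB21E7.09 at the left end of chromosome II, differed at 15 of 1083 positions, of which 9 fall in the first 130 bases, from chrI:5535198-5535327 and chrII:76318-76447, both on the plus strand.
SPAC186.03: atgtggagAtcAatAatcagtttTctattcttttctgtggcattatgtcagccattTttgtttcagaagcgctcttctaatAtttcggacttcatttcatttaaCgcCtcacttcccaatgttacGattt
SPBPB21E7.09: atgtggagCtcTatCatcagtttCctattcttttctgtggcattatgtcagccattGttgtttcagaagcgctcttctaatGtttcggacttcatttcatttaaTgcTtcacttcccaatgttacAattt
Here the copies were unlike. SPBPB21E7.09 had 559 and 658 counts in the wild-type libraries and 394 and 281 in the dbr1Δ libraries, and SPAC186.03 had 0, 1, 0 and 0, although 15.3% of its windows were unique at 3 mismatches.

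The fluoride exporter genes fex1 and fex2, which encode the same protein, differed at 1 base of 936, the sixth, shown with the first 60 bases from chrI:55274-55333 (plus strand) and chrII:56726-56785 (minus strand).
fex1: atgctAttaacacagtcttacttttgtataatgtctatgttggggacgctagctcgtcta
fex2: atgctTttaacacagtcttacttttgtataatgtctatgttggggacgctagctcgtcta
Only 6 of the 888 windows of each coding sequence were unique in exact form, so the windows to which reads could be assigned lay in the untranslated parts of the transcripts. In dbr1Δ both were lower, with a log2 fold change of -0.76 ± 0.29 for fex1 and -0.84 ± 0.20 for fex2, and neither passed the cutoff described next. Of the 56 genes with a near-identical copy, 42 had no count in any library, 5 had 1 to 9 counts over the 4 libraries, and 9 entered the comparison of strains.

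Read levels were higher farther from the end. Of the 37 genes in the first 25 kb, 26 had no count in any library, as did 15 of 36 from 25 to 50 kb, 2 of 34 from 50 to 75 kb and 2 of 27 from 75 to 100 kb. Summed over the genes of a band, the level in CPM (counts scaled to a common library size with the TMM factors of edgeR) was 10.1 and 7.14 in wild type in the first 25 kb, 159 and 154 in the next band, 792 and 766 in the third and 950 and 1012 in the last. In dbr1Δ the same sums were 9.51 and 9.43, 143 and 162, 528 and 495, and 730 and 724 CPM, so that the strains were apart in the inner 2 bands and overlapped in the outer 2. Of the 45 genes without any count, 44 had fewer than 50% unique windows, so the outer bands hold both the lowest counts and the fewest genes that reads could be assigned to, and how far the one accounts for the other was not tested.

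**Figure D1:**
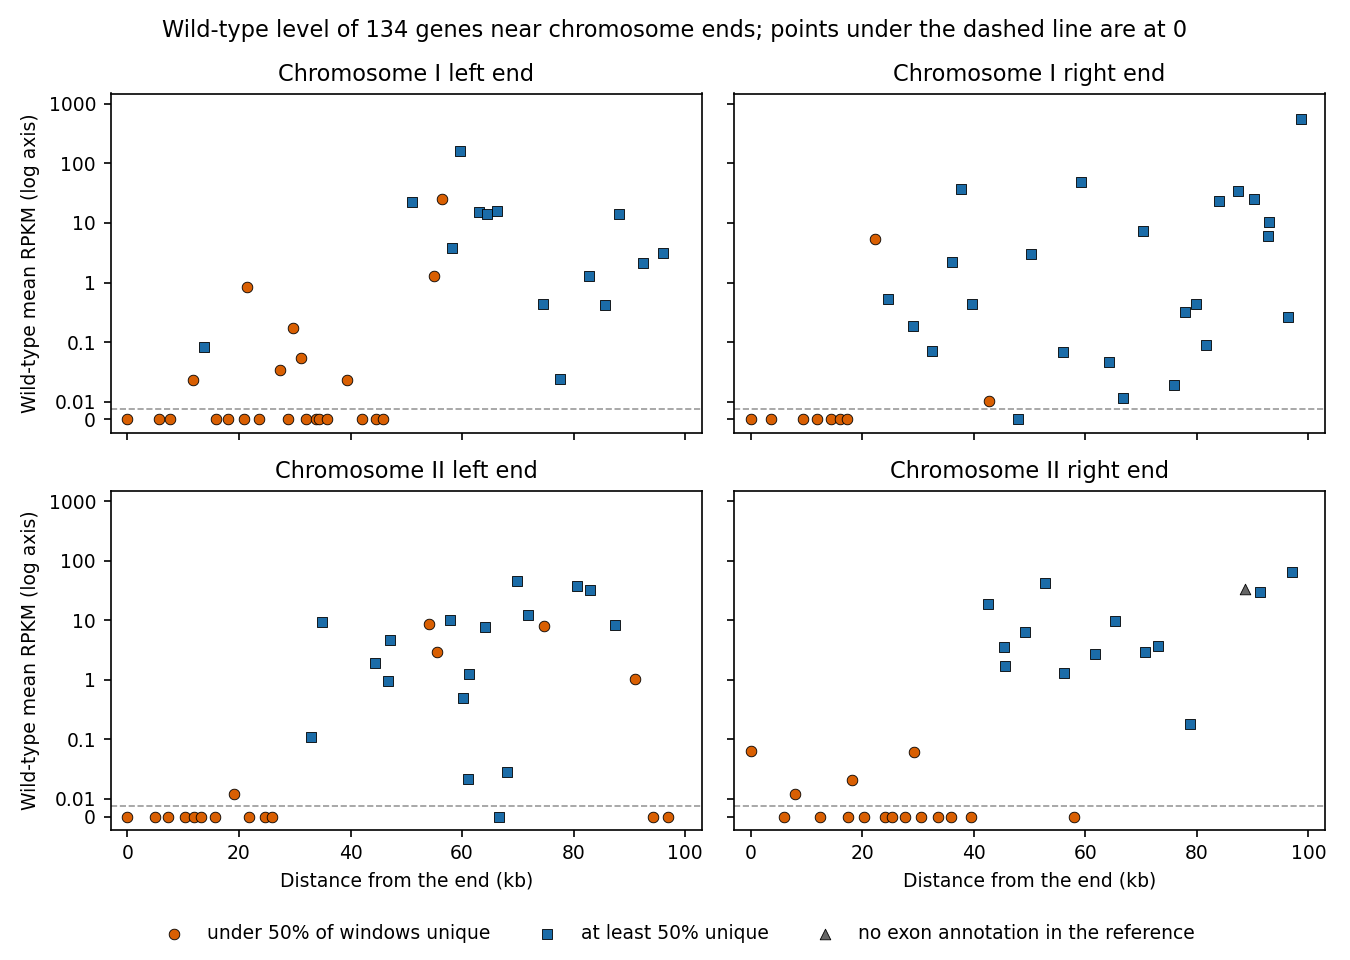
Mean wild-type level in RPKM (reads per kilobase of exon, scaled to library size, log axis) of each gene against its distance from the chromosome end in kb, with 1 panel for each end. Circles mark genes with fewer than 50% unique windows, squares those with at least 50% and the triangle SPBC8E4.02c, which has no exon annotation in the reference. Points under the dashed line are at 0 in wild type, and of the 45 genes without a count in any library 26 lie within 25 kb of an end and 15 from 25 to 50 kb.

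The ends also differed in level per length. Over all genes of an end, those without reads included, the median wild-type level was -4.87 and -4.02 on the log2 RPKM scale at the left of chromosome I and the right of chromosome II, and -1.95 and -1.75 at the right of chromosome I and the left of chromosome II. The first 2 medians lay near the detection limit. Per wild-type library they were 0 and 0.0463 RPKM at the left of chromosome I. At the right of chromosome II they were 0.0486 and 0.0863 RPKM. SPAC212.02, at the median of the left of chromosome I, had 0 and 1 counts in wild type. Genes with fewer than 50% unique windows numbered 23 and 16 at the first pair of ends and 9 and 17 at the second. Among the genes with enough reads to be compared between strains, the median was 5.95 and 5.92 RPKM in wild type and 4.29 and 4.19 RPKM in dbr1Δ, while that of the other protein-coding transcripts was 33.6 and 33.4 against 30.1 and 28.7 RPKM.

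The first gene with at least 100 counts over the 4 libraries stood at 21.4 kb on the left of chromosome I (SPAC212.04c, uncharacterised), at 22.4 kb on its right (SPAC750.01, an aldo-keto reductase), at 34.8 kb on the left of chromosome II (SPBC1348.12, a transcription factor) and at 42.6 kb on its right (gal1, galactokinase). The genes outside these points numbered 8, 7, 12 and 15. At the right end of chromosome I the 7 outer genes had no count at all, and at the right end of chromosome II the 15 outer genes had 51 counts in all, 46 of them at tlh2. tlh1 and tlh2, RecQ-type helicase genes that mark the outermost annotated position at the left of chromosome I and the right of chromosome II, had 0 counts in each library and 11, 11, 10 and 14 counts, respectively, with 0% and 5.92% of their windows unique.

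A few genes, singled out after their values were seen, had hardly any reads although reads could be placed on them. With all of its windows unique, SPBPB21E7.05, an uncharacterised gene 66.5 kb from the left end of chromosome II, had no count in any library, which allows a level of up to 0.0499 CPM over the wild-type libraries and 0.0669 CPM over the dbr1Δ libraries (3 counts). Altogether 14 genes had all of their windows unique and were too low to be compared, among them the urea transporter gene SPAC869.03c (2, 4, 1 and 4 counts), the amidase gene SPAC869.01 (3, 5, 2 and 1) and the formamidase-like gene SPAC869.04 (0, 1, 0 and 2), all at the right of chromosome I. These 3 encode predicted steps in the uptake and breakdown of urea and amides, and their counts are too few to compare the strains.

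The strains could be compared in 65 of the 134 genes, those that reached 10 counts in 2 or more libraries (16, 17, 17 and 15 at the left and right of chromosome I and the left and right of chromosome II). The cutoff of the study asks for more than a 2-fold change together with an adjusted p below 0.05, here from the quasi-likelihood test of edgeR. Past it, 9 of the 65 were increased (13.8%) and 17 were decreased (26.2%) in dbr1Δ. The background was 2.76% increased and 2.28% decreased over the 5000 protein-coding transcripts compared, and 6.69% and 2.81% over transcripts of any kind. Since these genes were picked out by this contrast, nothing is read from the difference between the shares. 3 of the 9 increased genes had entered the comparison through the dbr1Δ libraries alone. A lower level in such bulk RNA may come from fewer cells that express a gene or from less RNA per cell, which cannot be told apart.

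Among the end genes, the number of decreased genes depended on the scaling, and that of increased genes did not. Under the scaling over transcripts and introns together the median log2 fold change of all transcripts was -0.18, and with scaling from transcripts alone it was -0.01. The counts for the end genes were then 9 increased and 12 decreased, and with scaling from protein-coding transcripts alone 9 and 10, so that the increased share of the calls was 34.6%, 42.9% and 47.4% in turn. The shares over all protein-coding transcripts moved too. Increased and decreased were 2.76% and 2.28% under the main scaling, 3.52% and 1% with transcripts alone, and 3.78% and 0.86% with protein-coding transcripts alone. The 5 decreased genes lost under transcript scaling were ght3, yhb1, SPAC922.05c, SPBC1348.12 and ecl3, with log2 fold changes from -1.03 to -1.15, and nhe1 and put4 were lost too under protein-coding scaling.

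The 4 ends were not alike in these values. The median log2 fold change was -0.54 at the left and -0.54 at the right of chromosome I, -0.87 at the left of chromosome II and -0.00 at its right, beside -0.24 over all protein-coding transcripts. Increased and decreased genes numbered 3 and 4 at the left of chromosome I, 2 and 5 at its right, 3 and 6 at the left of chromosome II and 1 and 2 at its right. The summed levels of the end genes were 451 and 474 CPM in wild type and 276 and 231 CPM in dbr1Δ at the left of chromosome I, and 789 and 770 against 516 and 530 CPM at its right. At the left of chromosome II they were 350 and 352 against 314 and 303 CPM, and at its right 321 and 344 against 305 and 326 CPM, so that the strains overlapped at that end alone. These comparisons of ends leaned on single libraries in part. At the right of chromosome I the median was -0.23 without wild-type replicate 1 and the decreased genes numbered 3 without dbr1Δ replicate 1, and at the right of chromosome II the median was -0.20 without wild-type replicate 1 and 0.22 without wild-type replicate 2, and no gene was called decreased without dbr1Δ replicate 1. The sums leaned on single genes, as SPAC977.14c held 42.6% to 48.3% of the counts at the left of chromosome I and SPAC922.04 held 37.2% to 46.6% at its right. At the left of chromosome II the increased gene aes1 held 14.7% and 15.6% of the counts in wild type and 37.6% and 39.5% in dbr1Δ.

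**Figure D2:**
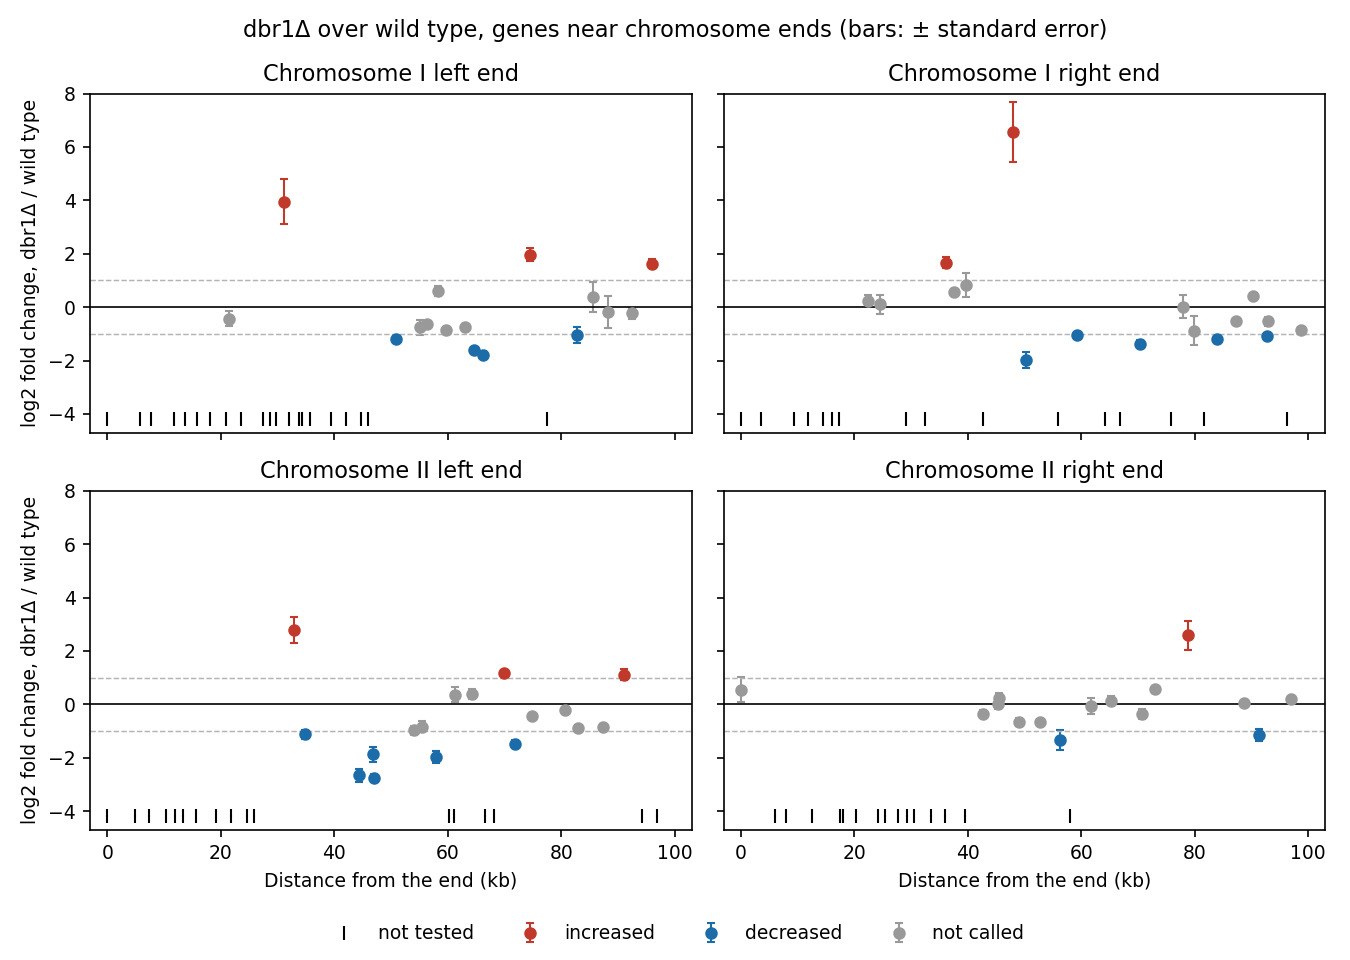
Log2 fold change of dbr1Δ over wild type (points, with the standard error as bars, n = 2 libraries per strain) against distance from the chromosome end in kb, with 1 panel for each end. Red and blue points are the 9 increased and 17 decreased genes, grey points the other tested genes, ticks at the bottom the 69 genes not tested, and dashed lines a 2-fold change. The decreased gene nearest each end lies at 50.9, 50.2, 34.8 and 56.2 kb. Only 18 of the 65 tested genes lie within 50 kb, so no boundary is read from these distances.

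By distance, measured to the edge of a gene nearer the end, none of the 4 genes compared in the first 25 kb passed the cutoff in edgeR or in DESeq2, and none had an unadjusted p under 0.05. From 25 to 50 kb there were 4 increased and 4 decreased genes among 14, from 50 to 75 kb 2 and 9 among 26, and from 75 to 100 kb 3 and 4 among 21. The median log2 fold changes of the bands were 0.17, 0.12, -0.76 and -0.24, of which that of the first band, with 4 genes, ran from -0.10 to 0.46 as each library was left out, that of the second band was -0.04 without wild-type replicate 1, and that of the last was -0.39 without wild-type replicate 1 and -0.42 and -0.37 without dbr1Δ replicates 1 and 2. In all 26 genes past the cutoff the libraries of the 2 strains did not overlap, but the same was true of 53 of the 65 genes compared and 84% of all protein-coding transcripts.

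**Figure D3:**
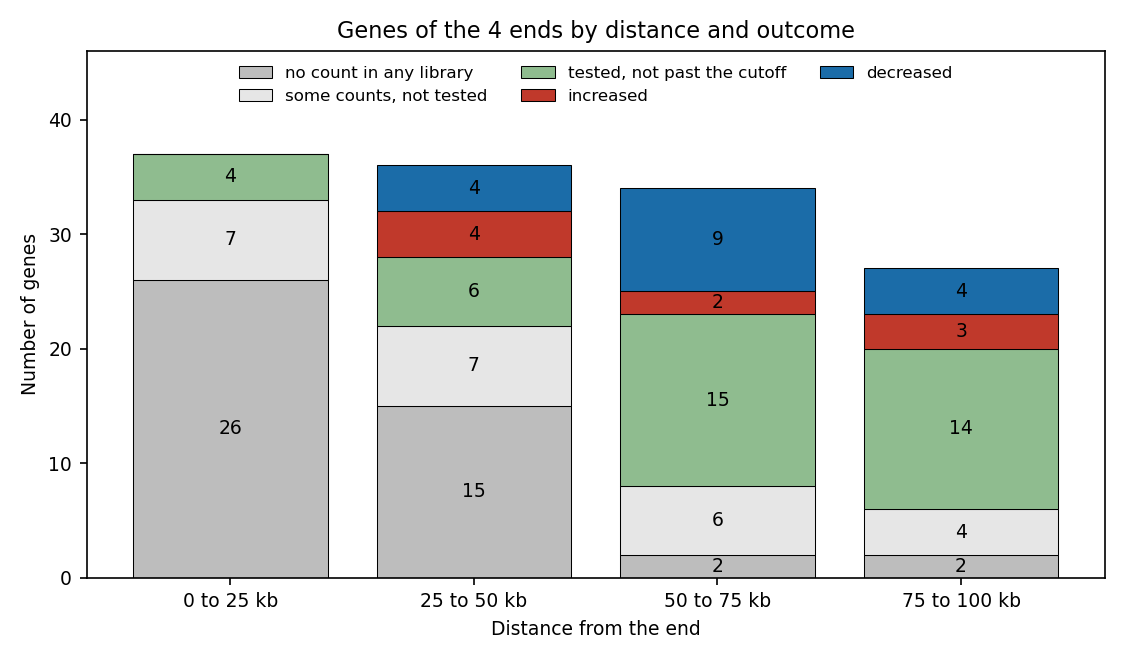
Number of genes (vertical axis) in each band of distance from the end in kb, over the 4 ends, divided by outcome. Genes without a count make up 26 of 37 in the band nearest the end and 2 of 27 in the farthest, and decreased genes number 0, 4, 9 and 4.

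At the left end of chromosome II, 4 neighbours among the compared genes, between 34.8 and 47.1 kb, were all decreased, and they held the 2 lowest log2 fold changes of the end genes. grt1, which encodes a transcription factor, was at 18.0 and 16.4 CPM in wild type and at 2.67 and 2.38 CPM in dbr1Δ. Its log2 fold change was -2.76 ± 0.15 (SE, n = 2 per strain). SPBPB8B6.02c, a urea transporter gene, was at 4.48 and 3.81 CPM in wild type and at 0.597 and 0.710 CPM in dbr1Δ (-2.66 ± 0.25). Between them, fah1, an acetamidase gene, was at 1.98 and 1.84 against 0.478 and 0.558 CPM (-1.88 ± 0.29). In these 3 genes the calls held whichever library was left out. fah1 and grt1 lie on opposite strands and share 1703 bases, 84.5% of fah1. The counts kept the strands apart, and the wild-type level of fah1 per length (0.977 and 0.903 RPKM) was lower than that of grt1 (4.78 and 4.34 RPKM).

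SPBC1348.12, the other transcription factor gene at this end and the fourth of these neighbours, falls outside the rule for named genes and was taken up after its values were seen. It was at 12.1 and 9.83 CPM in wild type and 4.74 and 5.27 CPM in dbr1Δ (-1.13 ± 0.16), a call that was lost without wild-type replicate 1 (-0.98). The call of SPBC1348.12 was lost too under transcript scaling (-0.95) and protein-coding scaling (-0.90). Of the 2 transcription factor genes among the end genes, only grt1 thus kept its call under every fit. Transcription factor genes were not counted among the other protein-coding transcripts, so nothing is read from their number here. Farther in, eno102, which encodes an enolase of glycolysis, was at 15.1 and 16.5 against 3.07 and 5.12 CPM (-1.97 ± 0.22), and the pseudogene SPBPB21E7.08 was at 16.5 and 15.5 against 4.98 and 6.39 CPM (-1.50 ± 0.15).

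Genes of transport across membranes made up 7 of the 17 decreased genes. Of 20 transporter genes at the 4 ends, 14 were compared, 1 was increased and 7 were decreased, and the median log2 fold change was -0.95. Of the decreased ones, ght3 and SPAC922.05c were lost under transcript scaling, and nhe1 and put4 too under protein-coding scaling. Transporter genes were not counted among the other protein-coding transcripts, so nothing is read from their number here. nhe1, the sodium ion/proton antiporter gene that gives salt tolerance, was at 64.8 and 63.8 CPM in wild type and 28.5 and 27.7 CPM in dbr1Δ (-1.19 ± 0.07). SPAC977.17, of the MIP superfamily of water and glycerol channels, was at 59.2 and 55.7 against 18.7 and 14.7 CPM (-1.77 ± 0.12). Its neighbour on the opposite strand is dak2, the gene of a dihydroxyacetone kinase in glycerol breakdown, which was at 36.1 and 33.8 against 11.4 and 11.3 CPM (-1.62 ± 0.10).

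At the right of chromosome I the decreased transporter genes were sul2, put4 and SPAC922.05c. The sulfate transporter gene sul2 was at 23.5 CPM in both wild-type libraries and at 10.1 and 7.86 CPM in dbr1Δ (-1.38 ± 0.14). put4, which encodes the proline transporter, was at 51.9 and 52.9 against 24.3 and 21.2 CPM (-1.20 ± 0.09). In SPAC922.05c, annotated only as a transporter, 21.8 and 21.3 CPM in wild type stood against 9.08 and 11.4 CPM in dbr1Δ (-1.08 ± 0.13), and without dbr1Δ replicate 1 it did not pass (-0.92). A transporter gene between them, cat1, for arginine and lysine, did not pass the cutoff, at 90.6 and 93.7 against 64.9 and 62.1 CPM (-0.54 ± 0.07).

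ght3, the gluconate symporter gene 82.7 kb from the left end of chromosome I, passed the cutoff narrowly. It was at 2.02 and 3.28 CPM in wild type and 1.35 and 1.22 CPM in dbr1Δ (-1.06 ± 0.30), and it did not pass without wild-type replicate 2 (-0.63) or without dbr1Δ replicate 2 (-0.98). Near it, str3, which takes up iron bound to siderophores, differed more between cultures of 1 strain than between strains, at 9.0 and 50.9 CPM in the wild-type libraries and 31.8 and 21.2 CPM in dbr1Δ (-0.19 ± 0.60). Leaving out wild-type replicate 2 changed the value of str3 to 1.57 and so its direction, as did leaving out dbr1Δ replicate 2 (0.06).

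The increased transporter gene was SPBPB10D8.04c, the outermost of 4 tandem copies at the left of chromosome II, of which 3 lie from 91.1 to 96.9 kb and the other, SPBPB10D8.07c, straddles the edge of the window. It was at 1.57 and 1.52 CPM in wild type and 3.42 and 3.24 CPM in dbr1Δ (1.11 ± 0.21). Its coding sequence of 1140 bases was the same as those of SPBPB10D8.05c and SPBPB10D8.06c, which had 0 counts in each library. Only 17.8% of its windows were unique, none of them within the coding sequence, so that the value rests on its untranslated parts.

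**Figure D4:**
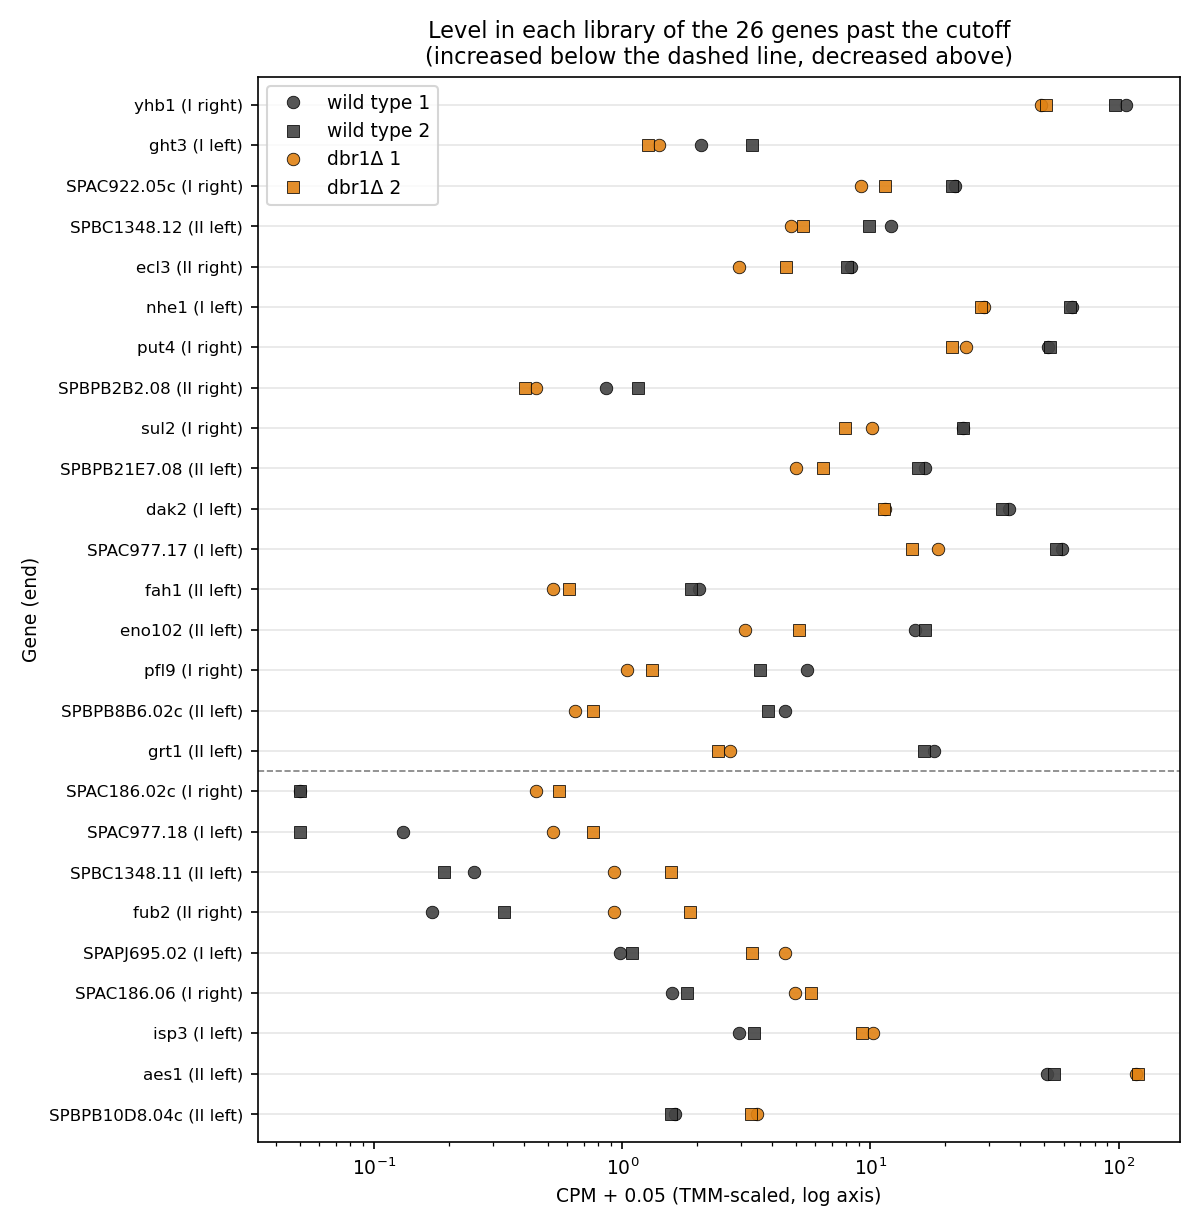
Level of each of the 26 genes past the cutoff in each of the 4 libraries, as CPM plus 0.05 on a log axis, with wild type in grey and dbr1Δ in orange and replicates 1 and 2 as circles and squares. The 9 increased genes lie below the dashed line and the 17 decreased genes above it. The strains are apart in each gene, as they are in 84% of all protein-coding transcripts. SPAC186.02c is at 0 in both wild-type libraries and at 0.398 and 0.507 CPM in dbr1Δ.

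Enzymes of sugar metabolism did not move together. Besides dak2 and eno102, the galactose genes formed a cluster 42.6 to 49.1 kb from the right end of chromosome II, and none of them passed the cutoff in edgeR or DESeq2, while 2 of the 4 were lower at an unadjusted p under 0.05. gal1, galactokinase, was at 32.9 and 39.6 CPM in wild type and 25.4 and 31.5 CPM in dbr1Δ (-0.36 ± 0.13), and gal7, the uridylyltransferase of the same pathway, was at 9.37 and 10.4 against 6.01 and 6.54 CPM (-0.66 ± 0.14). gal10, the epimerase, was at 10.6 and 14.5 against 11.7 and 13.5 CPM (-0.00 ± 0.17), and the strains overlapped. Its sign depended on the scaling and on the library left out. tgd1, a nucleotide-sugar dehydratase gene that shares 3291 bases with gal10 on the opposite strand, was at 5.61 and 6.92 against 6.93 and 8.11 CPM (0.25 ± 0.17).

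Among 14 genes of nitrogen compounds, a grouping by product made with these results known, 10 were compared, 3 were decreased (put4, SPBPB8B6.02c and fah1) and none was increased. Of these, put4 was lost under protein-coding scaling. Over all protein-coding transcripts 2.28% were decreased and 2.76% increased, and nothing is read from a group made in this way. The highest of them in dbr1Δ relative to wild type was nrg1, an amino-acid permease gene at the right of chromosome II, at 8.16 and 7.91 against 11.9 and 11.8 CPM (0.56 ± 0.13). SPBC8E4.03, annotated as an agmatinase, was at 106 and 109 against 119 and 127 CPM (0.19 ± 0.07).

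Other decreased genes were of several kinds. yhb1, the nitric oxide dioxygenase gene that detoxifies nitric oxide, was at 107 and 96.8 CPM in wild type and 48.6 and 50.9 CPM in dbr1Δ (-1.03 ± 0.08), close enough to the limit that it was lost without wild-type replicate 1 (-0.96) or dbr1Δ replicate 1 (-1.0). pfl9, of the DIPSY family of cell-surface glycoproteins, was at 5.49 and 3.53 against 0.995 and 1.27 CPM (-1.99 ± 0.30). ecl3, of a family of small proteins that lengthen life in stationary phase, was at 8.28 and 7.96 against 2.91 and 4.51 CPM (-1.15 ± 0.21), and it was lost without dbr1Δ replicate 1 (-0.85). SPBPB2B2.08, an uncharacterised gene with 7 to 39 counts per library, was at 0.808 and 1.10 against 0.398 and 0.355 CPM (-1.35 ± 0.38), and its call held in only 1 of the 4 fits that left out a library.

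The increased genes included several with few reads in wild type. aes1, annotated with the phenazine biosynthesis family, was the most abundant, at 51.4 and 54.9 CPM in wild type and 118 and 120 CPM in dbr1Δ (1.16 ± 0.07). isp3, a gene of sporulation that encodes a spore wall protein, was at 2.91 and 3.33 against 10.2 and 9.23 CPM (1.63 ± 0.16), and SPAC186.06, annotated as an isomerase, at 1.53 and 1.78 against 4.94 and 5.73 CPM (1.67 ± 0.20). SPAPJ695.02, uncharacterised, was at 0.929 and 1.04 against 4.46 and 3.29 CPM (1.97 ± 0.25). The calls of these 4 held under every scaling and whichever library was left out.

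The others were near the detection limit. fub2, of the PI31 family of proteasome regulators, showed 3 and 10 counts in wild type and 22 and 36 in dbr1Δ (2.59 ± 0.54, or 3.39 without wild-type replicate 2), and the pseudogene SPBC1348.11 had 5 and 5 against 22 and 30 (2.78 ± 0.49). SPAC977.18, uncharacterised and with 10.3% of its windows unique, had 2 and 0 against 12 and 14, a ratio of 17.4 with a 95% interval of 4.37 to 152 from counting error alone. Reads across the spliced junction of its 210-base intron numbered 2 and 0 against 9 and 12, and whether the counts rest mainly on them was not tested. Without wild-type replicate 2 the fitted log2 fold change of SPAC977.18 was 2.78 in place of 3.94, and without wild-type replicate 1 no wild-type count remains. SPAC186.02c, a hydroxyacid dehydrogenase gene, was without counts in wild type and had 10 and 10 in dbr1Δ. With wild type set at 3 counts over the strain, the ratio would be 8.95, a value that leaves out the counting error of the dbr1Δ libraries. The last 3 of these passed the filter on low counts through the dbr1Δ libraries alone, so a difference was built into their entry.

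The genes with the highest wild-type level per length at each end were mostly lower in dbr1Δ and mostly short of a 2-fold change. Of those given above, aes1 and SPBC8E4.03 were higher, and aes1 and yhb1 passed the cutoff. Over all protein-coding transcripts the median log2 fold change was -0.24, and 50.1% were lower at the adjusted p alone. SPAC922.04, uncharacterised, led all end genes at 557 and 562 RPKM in wild type, and was at 354 and 358 CPM against 192 and 200 CPM (-0.86 ± 0.07). SPAC977.14c, an aldo-keto reductase gene, was at 218 and 203 against 131 and 98.5 CPM (-0.87 ± 0.13), while its near-identical copy SPAC750.01 at the other end of the chromosome was at 6.98 and 4.52 against 6.57 and 6.94 CPM (0.25 ± 0.22), or -0.04 without wild-type replicate 2. pan5, for a reductase in pantothenate synthesis, was at 67.8 and 64.2 against 42.8 and 40.4 CPM (-0.67 ± 0.07), and SPBPB10D8.01, a cysteine transporter gene, was at 94.8 and 94.5 against 86.9 and 76.0 CPM (-0.22 ± 0.08), which became 0.01 with scaling from protein-coding transcripts.

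By other roles, of 32 genes for enzymes other than oxidoreductases 22 were compared, 1 was increased and 3 decreased, and of 11 oxidoreductase genes 7 were compared, 1 increased and 1 decreased. Among the 42 uncharacterised genes 23 had no count, 9 were compared, 4 were increased and 1 decreased. Of 13 pseudogenes 4 were compared, 1 of them increased and 1 decreased. Over all protein-coding transcripts 2.76% were increased and 2.28% decreased. Since the end genes were picked out by this contrast, nothing is read from the counts by role.

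The noncoding RNAs of the same windows numbered 51, of which 15 had no count and 24 were compared. In dbr1Δ 1 was increased and 4 were decreased, while over all noncoding RNAs compared 20.2% were increased and 3.12% decreased. Their median log2 fold change was -0.41, beside 0.30 over all noncoding RNAs. SPNCRNA.284, 53.3 kb from the right end of chromosome I, was read 53 and 46 times in wild type and 9 and 7 times in dbr1Δ (-2.22 ± 0.41). SPNCRNA.1301 and SPNCRNA.1302 run on the strands opposite to grt1 and eno102 and were decreased with them (-1.57 ± 0.31 and -1.14 ± 0.15), and SPNCRNA.606, opposite to isp3, was increased with it (1.10 ± 0.20). That last call was lost without wild-type replicate 1 or dbr1Δ replicate 1, and the count of increased noncoding RNAs was 2 without either of the other libraries. Other such pairs did not move together. SPNCRNA.602, opposite to the decreased nhe1, was at 0.12 ± 0.35. SPNCRNA.605 was at 0.50 ± 0.14 opposite to hhy1 (-0.24 ± 0.22), and SPNCRNA.1090 at -0.81 ± 0.33 opposite to atd2 (0.40 ± 0.07). SPNCRNA.1091 and SPNCRNA.1305, opposite to the decreased put4 and SPBPB21E7.08, were lower (-0.78 ± 0.22 and -0.83 ± 0.21) but not past the cutoff.

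Few end genes carry introns, on whose lariats Dbr1 acts. Introns were annotated in 26 of the 134 end genes (19.4%), against 49.6% of other protein-coding genes. Some of those in end genes were gaps of a few bases, such as 1 base in dak2 and 5 and 3 bases in SPBC1348.11. Of the 36 introns of end genes only 4 had enough reads to be compared, and edgeR called 3 of these decreased and none increased, while over all introns 53% were increased and 1.32% decreased. At an unadjusted p under 0.05 all 4 were lower, and DESeq2 called 1 decreased and none increased. They lie in SPBC1348.12 and the pseudogene SPBPB21E7.08, both decreased as transcripts. The compared entry of SPBPB21E7.08 was only 2 bases wide. Of its 23, 21, 7 and 3 counts, the wild-type libraries first, 16, 20, 7 and 3 were reads across its 5′ exon-intron boundary. The 3 compared introns of SPBC1348.12 had no read across the spliced junction in any library, and the one with the most reads had 24, 23, 11 and 7 reads across its 5′ exon-intron boundary, the wild-type libraries first.

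The genes of telomere and subtelomere chromatin lie elsewhere in the genome, and a list of 32 of them, from the telomere cap to the histone H3 lysine methyltransferase complex, held none past the cutoff in either direction, in edgeR or in DESeq2. At an unadjusted p under 0.05, 2 were higher and 25 were lower. At the adjusted p alone 1 was higher and 24 were lower, beside 13% higher and 50.1% lower over all protein-coding transcripts, and the median log2 fold change was -0.37 (lowest -0.80, highest 0.46). leo1, of the Paf1 complex, was at -0.80 ± 0.09, clr1, of the SHREC silencing complex, at -0.74 ± 0.07, fft3, a chromatin remodeller, at -0.68 ± 0.07, and taz1, which binds telomeric DNA, at -0.67 ± 0.09.

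The neighbouring windows and the ends of chromosome III are given for orientation only, with no comparison drawn. From 100 to 200 kb on chromosomes I and II, 152 protein-coding transcripts were compared, 6 were increased and 4 decreased, and within 100 kb of the ends of chromosome III 61 were compared, 4 increased and 2 decreased. At the edge of the windows, the last genes inside were isp3 (at 96.0 kb, with 72, 118, 256 and 182 counts, the wild-type libraries first), SPAC922.04 (98.6 kb, 8769, 12692, 4821 and 3947 counts), SPBPB10D8.06c (96.9 kb, 0 counts in each) and SPBC8E4.03 (97.0 kb, 2637, 3861, 3001 and 2501 counts). The genes that straddle the edge, and so were left out, were pfl8 with 543, 703, 652 and 600 counts in the same order of libraries, SPBPB10D8.07c with 0 counts in each, and SPBC8E4.04 with 2187, 2945, 2288 and 1794 counts.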

How the data were processed

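The deposited table gave read counts of 7022 transcripts and 5361 introns in 4 libraries, 2 cultures per strain. For introns, the deposited reads across the exon-intron boundary were added to the intron reads, and these sums are the intron counts used here. The authors aligned 49-base reads with Bowtie, allowing up to 3 mismatches, to the Ensembl EF1 genome and its exon junctions, and removed reads with several matches. They also deposited log2 RPKM values, with 1e-05 added before the log, and log2 splicing efficiencies, from which junction reads were recovered. Deposited columns that compare the strains (fold changes and the like) were not used.

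Counts were fitted in edgeR 4.0.16 (R 4.3.3) with the quasi-likelihood F test, as 9518 loci (6401 transcripts and 3117 introns) that had at least 10 counts in at least 2 libraries, with TMM scaling over all loci and Benjamini-Hochberg adjustment over all of them. Standard errors were derived from the F statistic. Total counts of 19780858 to 36062720 per library set the precision. The p-values and standard errors rest on the spread of 2 cultures per strain, which the labels describe as biological replicates. For each locus edgeR draws this spread toward a trend over all tested loci, so it is partly borrowed from other loci. Intervals (95%) and floors (3 counts) cover counting error only. The replicate numbers did not pair the samples (correlation of deviations -0.02). The fit was tested on simulated data.

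Exons, proteins and sequences came from RefSeq ASM294v3, which has the same chromosome I end as the deposited coordinates, and 99.7% of 5303 introns checked had GT-AG ends at the deposited coordinates. Copies were found with blastp (BLAST 2.17.0), and unique windows with bwa 0.7.19.

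Genes were named if they were among the 5 most increased or decreased past the cutoff at an end, without overlap of the strains, were the compared gene nearest the end or among the 2 highest in wild-type RPKM there, stood in a list of known subtelomeric genes, or formed near-identical groups. Chromatin factors were named if they were among the 4 most changed. Genes outside this rule (SPBC1348.12, cat1, nrg1, tgd1, hhy1, atd2, SPAC869.01, SPAC869.03c, SPAC869.04, SPBPB21E7.05 and the noncoding RNAs) were chosen after their values were seen. Members and lists were chosen with earlier results of these data known. Alternatives were other scalings, filters, windows, tools, a replicate block and each library left out.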

Additional observations from a re-analysis of the deposited data

How the results depend on the processing

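The 33 counts, medians and levels were recomputed under the alternatives that apply to each. Other windows, copies, unique windows and the fold minimum were varied only for the end genes as a whole, and the RPKM medians under 2 alternatives. Of the resulting values 268 stayed within 1.5 times the count or within the replicate spread of the median. The others moved beyond that and are given below, as values or as ranges. Decreased genes at the right of chromosome II and the median from 25 to 50 kb moved under most of their alternatives. With scaling from transcripts alone, decreased genes numbered 3 at the right of chromosome I and 1 at the right of chromosome II, and medians were -0.26 over all end genes, -0.36 at the right of chromosome I, -0.69 and 0.17 at the left and right of chromosome II, and 0.30, -0.59 and -0.0644 from 25 to 50, 50 to 75 and 75 to 100 kb, with 4 genes called in the 75 to 100 kb band. With protein-coding scaling 10 genes were decreased in all, 2 at the left and 2 at the right of chromosome I and 1 at the right of chromosome II, the medians in the same order were -0.20, -0.31, -0.64, 0.23, 0.35, -0.53 and -0.0078, and 3 genes were called in the 75 to 100 kb band. With either scaling 2 noncoding RNAs were decreased, and 2 or 3, in that order, were increased.

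With a mean of at least 50 counts, 5 genes were increased in all, 1 at the right of chromosome I and 0 at the right of chromosome II, 3 and 1 were decreased at these ends, 4 were called in each of the 25 to 50 and 75 to 100 kb bands, and medians were -0.76 at the left of chromosome II and -0.24, -0.65 and -0.42 in the 3 bands beyond 25 kb. The noncoding RNAs then gave 2 increased and 1 decreased, and the introns 0 decreased. With no filter, 4 genes were increased at the right of chromosome I, medians were 0.028 and -0.25 at the right of chromosomes I and II and -0.39 in the 25 to 50 kb band, and 1 intron was increased. DESeq2 called 1 gene decreased at the right of chromosome II and 1 intron decreased. With a window of 50 kb that must hold the whole transcript, which leaves out grt1 at its edge, 4 genes were increased and 3 decreased, with a median of 0.25, and without a fold minimum 14 and 33. Wild-type log2 RPKM medians of the compared genes alone were 2.58 at the right of chromosome I and 3.0 and 1.87 at the left and right of chromosome II, and with 0.1 RPKM added before the log the right of chromosome II was at -2.63.

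Leaving out each library in turn gave 3 to 6 decreased genes and medians of -0.50 to -0.23 at the right of chromosome I, 0 to 2 decreased genes and medians of -0.20 to 0.22 at the right of chromosome II, medians of -0.042 to 0.33 and -0.42 to -0.21 in the 25 to 50 and 75 to 100 kb bands, and 0 to 2 increased noncoding RNAs. The direction changed for SPAC750.01 (-0.041 without wild-type replicate 2, and up to 0.58 without wild-type replicate 1), SPBPB10D8.01 (0.014 with protein-coding scaling), gal10 (0.17 and 0.23 with the 2 scalings, 0.11 with a mean of 50 counts, 0.26 without wild-type replicate 2 and 0.10 without dbr1Δ replicate 1) and str3 (0.034 with protein-coding scaling, and from -0.93 to 1.57 when a library was left out). The cause was not tested for any of these.

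With the replicate number as a block, 9 genes were increased and 17 decreased and the median was -0.44. gal10 was then at 0.022 and str3 at 0.18. Same-numbered samples shared only a number.

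The counts restricted to genes with at least 50% unique windows, and to genes that did not enter through 1 strain alone, were alternatives chosen after seeing the data. Of the 17 decreased genes 8, and of the 9 increased genes 5, passed the cutoff under every fit. Too few reads were assigned to 69 of the 134 genes for a comparison, and 14 of these had all of their windows unique while the others had fewer than 50% unique.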
